A study of Mus musculus with 16 samples.

Results

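The comparison described here is DBA/2J minus A/J in control mice: the 4 control arrays of DBA/2J against the 4 control arrays of A/J, 8 of the 16 arrays of the series, over all 45037 probe sets that are not array controls. Both strains are inbred mice with no engineered allele in the labels (substrains A/JOlaHsd and DBA/2JRccHsd). All mice were males aged 7 to 8 weeks, kept 8 to a cage, and which mice shared a cage is not given, so strain and cage cannot be told apart. The control groups carry the label untreated, whereas the common protocol gives daily intraperitoneal saline for 3 days as the alternative to risperidone. Each array held biotin-labelled total RNA labelled as striatum, and the labels call the 4 arrays of a group biological replicates. The other 8 arrays, from risperidone-treated mice of the same strains, are used only in the last comparison and in an alternative fit over all 16 arrays.

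Inbred strains are fixed for different alleles at many loci, and a variant in or near a gene can change how much of its RNA a cell makes, how that RNA is spliced, or how long it lasts. The striatum is mostly made of GABAergic projection neurons, in which dopamine acts through D1 receptors in one class and D2 receptors in the other. A probe set is a group of short oligonucleotides that together report one stretch of a transcript, and many genes have several. A variant under a probe lowers binding without any change in RNA, and that cannot be told apart from a change in level, since probe sequences were not used here.

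The tissue label was checked against marker genes. Of the 23 measured markers of striatal projection neurons, 18 lay above the median level of all probe sets. So did 9952 of all 17097 genes, each taken by its probe set with the highest mean level. Among the 18, Bcl11b (a transcription factor of these neurons) was at percentile 95.8. Gnal (the olfactory-type G protein that couples D1 receptors) was at 91.6 and Pde10a (a striatal phosphodiesterase) at 85.1. Drd1, the D1 receptor, was at percentile 59.4, and Drd2, the D2 receptor, was at 15.9. Markers of cortical excitatory neurons were also high. Slc17a7, the vesicular glutamate transporter of cortex, was at percentile 97.6, Cux2 at 96.9, Tbr1, a cortical transcription factor, at 91.7 and Neurod6 at 87.8. Cortical markers were thus not near the bottom of the range in RNA labelled striatum, while Drd2 was. Levels of different probe sets cannot be set against each other as amounts, so these percentiles give no proportions, and what the dissected tissue held was not tested. No cortical marker of 12 was called between the strains, against 1.63% of all genes, too few genes to read anything from the count. The mean level of the 12 was 8.27 in A/J replicate 3 and 8.48 to 8.66 in the other arrays. The RNA is called by its label below.

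DBA/2J replicate 4 stood apart from the other arrays. Its correlation with its own strain was 0.977 to 0.979, against 0.991 to 0.993 among the A/J arrays and up to 0.994 among the rest of DBA/2J, and limma's array weight for it was 0.215, against 0.900 to 2.09 for the other 7 arrays. Over 69 genes of cytosolic ribosomal proteins its mean level came to 9.74, whereas the remaining 7 arrays spanned 10.20 to 10.26. The median SD within a strain was 0.128 on the log2 scale in A/J and 0.163 in DBA/2J, or 0.106 in DBA/2J without that array.

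Of the 45037 probe sets, 864 (1.92%) passed limma's test at an adjusted p under 0.05, which is what "called" means here. Of them, 445 (0.988% of all) were higher in DBA/2J and 419 (0.93%) were lower. To give each gene 1 value, its probe set with the highest mean level was used. On that count 279 of 17097 genes (1.63%) were called, 123 (0.719%) higher and 156 (0.912%) lower in DBA/2J. The median size of a called difference was 0.64 on the log2 scale, or 1.56-fold, against 0.11 over all genes. Among called genes, 23 were at least 2-fold higher in DBA/2J and 24 at least 2-fold lower, while 4 in each direction passed 4-fold. The 4 and 4 arrays did not overlap in 278 of the 279 called genes, against 1565 of all genes (9.15%). The calls were made on these same arrays, so that separation follows largely from the call and adds no support to it. The number of calls moved with the arrays used. It was 395 genes without DBA/2J replicate 4, and it was 168, 160, 157 and 164 without A/J replicates 1 to 4. It was 173 and 153 without DBA/2J replicates 1 and 2. Array weights gave 590 genes and a fit over all 16 arrays gave 592.

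**Figure D1:**
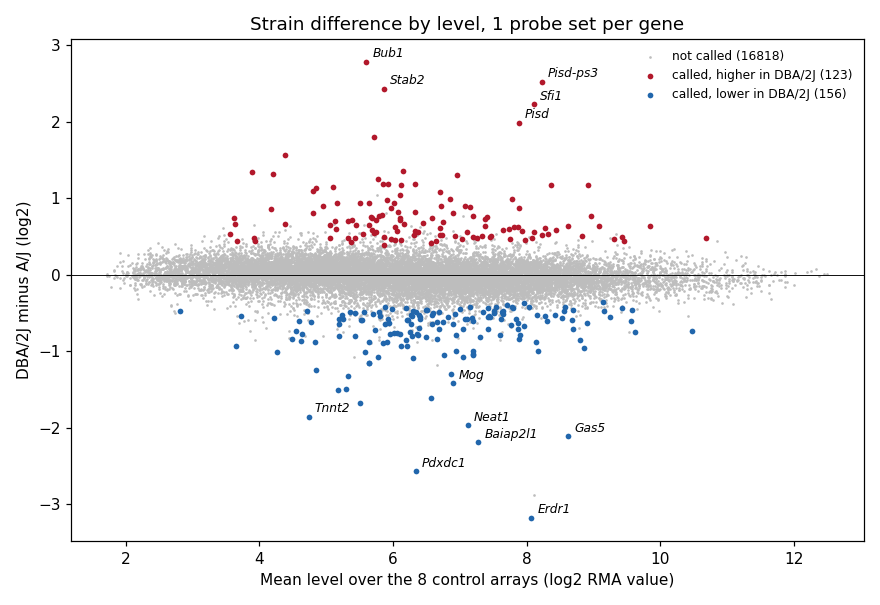
Each point is 1 gene, with its mean log2 RMA value over the 8 control arrays on the horizontal axis and the DBA/2J minus A/J log2 difference on the vertical axis. Red points are the 123 genes called higher in DBA/2J and blue points the 156 called lower; the largest differences are at 2.79 for Bub1 and -3.18 for Erdr1.

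The gene with the largest difference toward DBA/2J was Bub1, a kinase of the mitotic spindle checkpoint. Its levels were 4.10, 5.08, 3.48 and 4.16 in the A/J arrays and 6.97, 7.10, 6.73 and 7.16 in the DBA/2J arrays. All DBA/2J arrays lay above every A/J array, and the difference was 2.79 ± 0.26 (SE, 4 and 4 arrays), or 6.89-fold, with limma's adjusted p = 8.5e-05. The second probe set of Bub1 differed by 0.14 and was not called, at mean levels of 3.67 and 3.82. Stab2, a scavenger receptor for hyaluronan, has 1 probe set. It read 4.08, 4.25, 4.94 and 5.30 in A/J and 7.02, 6.91, 7.46 and 6.91 in DBA/2J, again without overlap, a difference of 2.43 ± 0.24.

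Pisd, Pisd-ps3 and Sfi1 were also much higher in DBA/2J. Pisd encodes phosphatidylserine decarboxylase of mitochondria, Pisd-ps3 is one of its pseudogenes, and Sfi1 encodes a centrin-binding protein of the centrosome. Pisd-ps3 read 6.97, 7.18, 6.95 and 6.74 in A/J and 9.52, 9.45, 9.42 and 9.55 in DBA/2J, a 5.76-fold difference. Sfi1 read 6.83, 6.76, 7.18 and 7.21 in A/J and 9.48, 9.19, 9.27 and 8.96 in DBA/2J, a 4.69-fold difference. Within each strain the 4 arrays of both genes were close, and the strains were far apart. Pisd was 3.97-fold higher, with 2 of its 3 probe sets called. Probes of Pisd and its pseudogene copies can bind each other's RNA, so which copy gave the signal is uncertain.

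The other genes among the 15 highest include several best known from other tissues. Mael, a gene of the piRNA pathway in germ cells, was at 3.08 to 3.40 in A/J and 4.30 to 5.10 in DBA/2J, which is 2.54-fold at a low level. Phkg1, the muscle catalytic subunit of phosphorylase kinase, was at 5.20 to 5.65 and 6.74 to 6.95, with both of its probe sets called. Zfp949, a zinc finger gene, was at 6.15 to 6.40 and 7.52 to 7.70, also with both probe sets called. Sox2ot, a long noncoding RNA that overlaps Sox2, was at 5.15 to 5.49 and 6.46 to 6.61. Dmp1, a bone and dentin matrix protein, Vmn2r29, a vomeronasal receptor gene, Cldn34c1, a claudin gene, Gm1976, Gm20754 and Fam71e1 made up the rest, at 2.28-fold to 3.48-fold. Dmp1 had 2 of its 3 probe sets called. The other probe set of Fam71e1 differed by 0.015 and was not called. The 15 highest genes had non-overlapping arrays by rule, and each stayed called when any 1 of the 8 arrays was left out.

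Erdr1, named for regulating erythroid differentiation, had the largest difference among the genes' brightest probe sets, and it has 1 probe set. Its levels were 10.19, 9.74, 8.88 and 9.82 in A/J and 6.48, 6.71, 6.67 and 6.05 in DBA/2J. Even the lowest A/J array was more than 2 log2 units above the highest DBA/2J array, and the gene was 9.06-fold lower in DBA/2J (-3.18 ± 0.24, limma's adjusted p = 1.5e-05). Baiap2l1, an adaptor that bends membranes and binds actin, read 8.30, 8.45, 8.07 and 8.67 in A/J and 6.15, 6.27, 6.15 and 6.17 in DBA/2J. It was 4.56-fold lower, and both of its probe sets were called.

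Long noncoding RNAs were among the lowest in DBA/2J. Neat1, the scaffold of nuclear paraspeckles, read 8.11, 8.10, 8.30 and 7.91 in A/J and 6.32, 5.99, 6.13 and 6.11 in DBA/2J, a difference of -1.97 ± 0.11. Gas5, a host of small nucleolar RNAs, read 9.61, 9.71, 9.72 and 9.68 in A/J and 7.66, 7.74, 7.56 and 7.31 in DBA/2J, a difference of -2.11 ± 0.10. The strains were fully separated for both genes. Neat1 has 1 probe set. For Gas5 the other 2 probe sets differed by 0.29 and -0.28 and were not called, so its difference rests on 1 of 3 probe sets.

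Tnnt2, cardiac troponin T, was lower in DBA/2J, at 5.57 to 5.78 in A/J and 3.70 to 3.86 in DBA/2J. So was Sspn, sarcospan, at 5.23 to 5.97 and 4.02 to 4.36. Both probe sets of Tnnt2 were called, whereas the other probe set of Sspn differed by -0.09 and was not called. Krt12 and Krt20, keratins of cornea and gut, were 3.07-fold and 2.50-fold lower. Ier5, an immediate early response gene, read 6.09, 6.26, 5.75 and 6.08 in A/J and 4.65, 4.50, 4.60 and 4.44 in DBA/2J. Slc5a5, the sodium iodide symporter, was at 7.41 to 7.64 and 6.10 to 6.34, and its other probe set differed by -0.12 and was not called. Thbs4, a thrombospondin, was 2.23-fold lower, and Catspere2, a subunit of the sperm calcium channel, 3.19-fold lower. Sbsn was 2.83-fold lower, with 2 of its 3 probe sets called and the third at 0.04. The 15 lowest genes also stayed called without any 1 array.

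**Figure D2:**
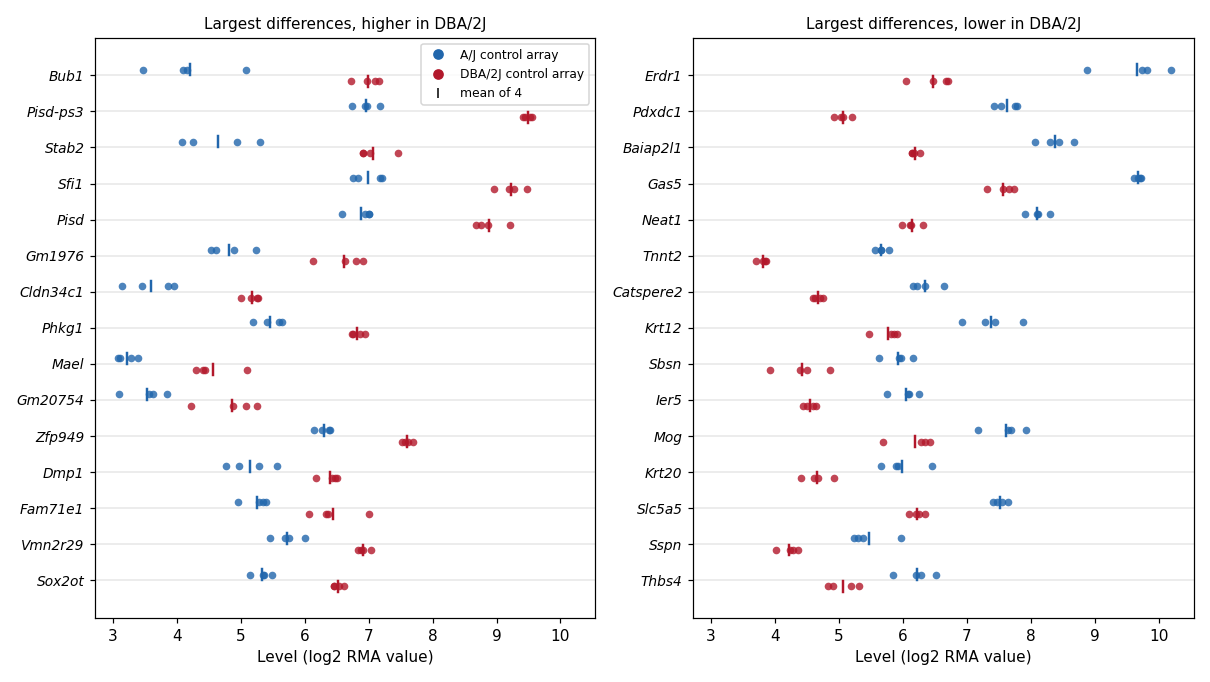
The 15 genes with the largest called differences in each direction, with each of the 8 control arrays as a point on the log2 scale (blue A/J, red DBA/2J) and the mean of 4 as a bar. The arrays of the strains do not overlap in any of the 30 genes, and Pisd-ps3 shows 6.74 to 7.18 against 9.42 to 9.55.

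Agreement between probe sets of a gene was assessed over the 7180 genes with at least 2. In 283 of them at least 1 probe set was called. All probe sets were called in one direction in 23 of these genes, exactly 1 in 236, some but not all in 17, and probe sets were called in opposite directions in 7. Where exactly 1 was called, it was the brightest in 75 of 236 genes, and 328 of the 460 other probe sets had the same sign. Probe sets of a gene share the 8 arrays and are not replicates.

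Seen from the called genes, 115 had at least 2 probe sets, with 182 beside the brightest. Of these, 141 (77.5%) had the same sign, 41 (22.5%) were also called in the same direction and 7 were called in the opposite one. The same-sign share was 59.4% among genes not called. Larger differences had the higher share: 55.9% of the other probe sets were called in the same direction where the brightest differed at least 2-fold, and 14.9% where it differed less. Neither share was tested.

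In 4 genes with 3 or more probe sets, all were called in one direction. Sfi1 had 5, which differed by 2.23, 2.12, 2.02, 1.45 and 1.12. Pisd-ps3 had 3, at 2.52, 3.92 and 3.27, so the brightest gave the smallest difference. Tmem64, a transmembrane protein gene, had 3, at 0.71, 1.45 and 2.87. Its brightest probe set lost the call when any 1 of 7 arrays was left out, with limma's adjusted p up to 0.111, and kept it only without DBA/2J replicate 4. Nrip3, a nuclear receptor interacting protein gene, had 3 lower probe sets at -0.88, -0.76 and -1.22. Its brightest read 8.37, 8.58, 8.74 and 8.64 in A/J and 7.54, 7.47, 7.73 and 8.07 in DBA/2J, with no overlap.

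The 7 genes with opposite calls were Pdxdc1, Gfap, Uap1, Pnma2, Rcbtb2, Pdk1 and Rsad1. Pdxdc1, a decarboxylase-like gene, showed it most. Its brightest probe set was lower in DBA/2J, at mean levels of 7.63 and 5.06 (-2.57). Another was higher, at 4.47 and 7.68 (3.21), and the last differed by -0.52. All 3 were called, so the gene has no one direction, and its mean over probe sets differed by 0.04. Gfap, the astrocyte intermediate filament, had 2 probe sets at -0.42 and -0.43, of which the first was called, and a dimmer one at 1.31, which was called higher. Uap1, an enzyme of UDP-N-acetylglucosamine synthesis, had its brightest at 0.52 and others at -0.87 and -0.97. Pnma2 had 0.63 and -0.73, Pdk1, a pyruvate dehydrogenase kinase, -0.47 and 0.71 among its called probe sets, Rcbtb2 -0.59 and 0.67, and Rsad1 0.73 and -1.09. The brightest probe sets of Uap1, Rcbtb2 and Pdk1 lost their calls in 6, 5 and 4 of the 8 fits that left out an array, with limma's adjusted p up to 0.0898, 0.0949 and 0.0699.

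**Figure D3:**
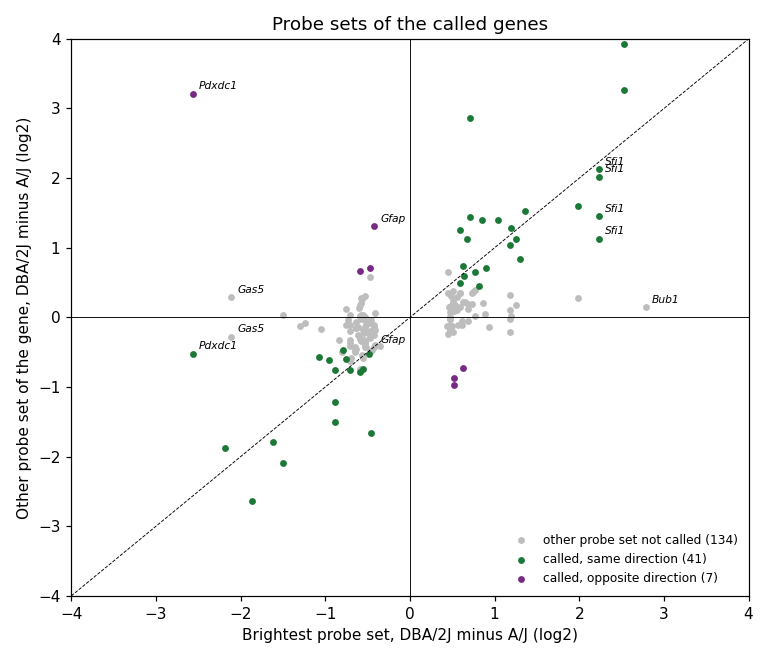
For the 115 called genes with at least 2 probe sets, the log2 difference of the brightest probe set (horizontal) is plotted against that of each other probe set (vertical), with the dashed line marking equal differences. Green points, 41 in all, were called in the same direction, purple points, 7, in the opposite one, and 134 grey points were not called; most grey points lie near 0.

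Genes of neurotransmission mostly did not pass the test. No measured member was called among 23 striatal projection neuron markers, 22 glutamate receptor genes, 18 genes of GABA receptors and synthesis, 32 serotonin, acetylcholine, opioid and cannabinoid receptor genes or 30 genes of synaptic vesicle release, against 1.63% of all genes. Median differences of these lists were -0.07, 0.01, -0.02, -0.09 and -0.02, beside a median of -0.0025 over all genes. Drd2 read 4.57, 3.80, 4.55 and 3.89 in A/J and 3.62, 3.74, 3.79 and 3.72 in DBA/2J, with 2 A/J arrays well above the others (-0.49, adjusted p = 0.217 from limma). Ppp1r1b (DARPP-32, the phosphoprotein that relays dopamine signals) was at 6.80 to 7.57 and 5.99 to 6.76 (-0.61, limma's adjusted p = 0.167). Penk, preproenkephalin, spanned 6.13 to 7.70 in A/J and 6.58 to 7.24 in DBA/2J, and differed by 0.02. Pde10a was just outside the threshold, at 7.85 to 8.07 and 7.37 to 7.68 (limma's adjusted p = 0.0502), and 1 of its 5 probe sets was called.

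In the dopamine list 1 of 35 genes was called (2.86%, against 1.63% of all genes), Prkar2b, a regulatory subunit of protein kinase A, at 7.02 to 7.30 in A/J and 6.43 to 6.86 in DBA/2J (-0.52). It lost the call in 6 of the 8 fits that left out an array, with limma's adjusted p up to 0.125, and kept it without DBA/2J replicate 2 or 4. In the mTOR list 1 of 46 was called (2.17%), Prr5l, which binds mTOR complex 2 (-0.86). It lost the call in 5 of 8 such fits, with limma's adjusted p up to 0.0702. Mtor itself was at 8.52 to 8.65 in A/J and 8.59 to 8.70 in DBA/2J. Of ion channels, 1 of 77 potassium channel genes was called (1.3%), Kcnk1, a leak channel (0.51), and 1 of 22 calcium channel genes (4.55%), Cacna1e, the R-type channel pore, at 8.59 to 8.97 and 9.24 to 9.68. The Kcnk1 call was lost without A/J replicate 3 or 4 (limma's adjusted p up to 0.0535) and that of Cacna1e in 5 of 8 fits (up to 0.0821). No sodium channel gene of 11 was called. A single call in lists of this size is too few to set apart from the share of all genes.

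Activity-regulated early genes had 4 of 31 called (12.9%, against 1.63% of all genes), 2 in each direction. Egr2, a zinc finger transcription factor induced by neuronal activity, read 8.11, 8.12, 8.40 and 8.54 in A/J and 8.80, 9.14, 8.77 and 9.03 in DBA/2J (0.64). Nptx2, a secreted pentraxin of synapses, was at 7.40 to 7.61 and 7.78 to 8.10 (0.47). Ier5 was lower, as above, and so was Klf2, a transcription factor, at 7.27 to 7.47 and 6.35 to 6.63 (-0.78). Egr2 lost its call in 4 of 8 fits without an array (limma's adjusted p up to 0.083) and Nptx2 in 6 of 8 (up to 0.13), while Ier5 and Klf2 kept theirs in all 8. The list's median difference was 0.15, and 21 of its genes were higher and 10 lower. The circadian clock list had 1 of 21 called, Bhlhe41, a repressor of clock transcription (-0.80, lost in 6 of 8 fits, limma's adjusted p up to 0.0968). Clock missed the threshold at 7.10 to 7.35 and 7.51 to 7.61 (limma's adjusted p = 0.0581).

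The lists of immune genes held 1 call or none each, beside 1.63% of all genes. Ifih1, a sensor of viral RNA, was called among 31 interferon-stimulated genes (3.23%), at 4.65 to 4.95 in A/J and 5.32 to 5.65 in DBA/2J (0.71), and 23 of the 31 were higher with a median of 0.06. H2-T23, a nonclassical class I antigen, was called among 30 genes of antigen presentation (3.33%), at 4.93 to 5.36 and 5.79 to 6.45 (0.94). Its second probe set differed by -0.14. No complement gene of 20 was called, including Hc, complement C5, at 4.15 to 4.30 and 3.93 to 4.13. Outside these lists, and named after their values were seen, the called genes include the chemokines Ccl6 (0.94) and Ccl27a (0.77) and the innate immune genes Nlrc3 (0.54) and Slfn8 (0.48), higher in DBA/2J. The chemokine Ccl21b (-0.52) and the receptor Tlr1 (-0.93) were lower. Ccl27a and Ccl21b have near-identical copies, so their signals are uncertain.

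Of 14 oligodendrocyte markers 13 had a negative difference, with a median of -0.41 beside -0.0025 over all genes, and 1 was called (7.14%, against 1.63% of all genes). That was Mog, a myelin surface protein, at 7.64, 7.69, 7.93 and 7.17 in A/J and 6.43, 6.35, 6.28 and 5.69 in DBA/2J (-1.42 ± 0.18). The strains were apart on every array. Mbp, myelin basic protein, was at 11.69 to 12.05 and 11.46 to 11.56, without overlap and without a call. Cnp (-0.69, limma's adjusted p = 0.0524) and Mag (-0.86, limma's adjusted p = 0.0644) lay just outside the threshold. The list's mean level was 7.87 to 8.50 in the A/J arrays and 7.48 to 7.80 in the DBA/2J arrays. In bulk RNA, fewer cells of a type and less RNA per cell cannot be told apart.

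Microglial markers had a negative difference in 11 of 13 genes, with a median of -0.28 and a mean level of 6.33 to 6.43 in A/J and 5.97 to 6.14 in DBA/2J. Cx3cr1, the fractalkine receptor, was the one called (7.69%, against 1.63% of all genes). It read 7.74, 7.74, 7.81 and 7.62 in A/J and 6.59, 6.57, 6.31 and 7.24 in DBA/2J (-1.05), and DBA/2J replicate 4 was the nearest to A/J. The other probe set of Cx3cr1 differed by -0.17 and was not called. Without DBA/2J replicate 4 the median of the microglial list was -0.185. P2ry12, a purine receptor of resting microglia, was at 7.29 to 7.55 and 6.98 to 7.12 and was called only without DBA/2J replicate 4 among those fits (limma's adjusted p = 0.0361, against 0.0633 with it). Among 15 astrocyte markers Gfap alone was called (6.67%), and in 7 of the 8 fits without an array it lost the call (limma's adjusted p up to 0.149, kept only without DBA/2J replicate 4). Among 14 endothelial and mural markers Acta2, smooth muscle actin, alone was called (7.14%, with a difference of -0.58), and it too kept the call only without DBA/2J replicate 4 (up to 0.13). The other probe set of Acta2 had the opposite sign, at 0.275, and was not called.

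Markers of neighbouring regions varied among the A/J arrays. All 10 thalamic markers were lower in DBA/2J, with a median of -0.59, but their mean level was 6.08 to 7.50 across A/J arrays and 5.98 to 6.10 across DBA/2J arrays. Tcf7l2, a transcription factor of thalamus, read 7.23, 5.83, 8.98 and 6.93 in A/J and 6.14, 5.92, 5.81 and 6.38 in DBA/2J, so A/J replicate 3 was far above the rest and A/J replicate 2 at the DBA/2J level. Calb2, calretinin, was the thalamic gene called (10%, against 1.63% of all genes) and is also a marker of striatal interneurons. It differed by -0.94, and the call was lost in 6 of 8 fits without an array (limma's adjusted p up to 0.094). Ttr, transthyretin of the choroid plexus, read 11.90, 11.06, 8.24 and 6.99 in A/J and 7.79, 6.0, 6.43 and 6.44 in DBA/2J. Its difference of -2.88 was among the largest of any gene and was not called (limma's adjusted p = 0.147). Without A/J replicate 4 it was (0.0343). Of 13 striatal interneuron markers, 6 were higher and 7 lower with a median of -0.03. In that list 2 were called (15.4%, against 1.63% of all genes), Vip higher and Calb2 lower. The Vip call was lost in 7 of 8 fits without an array (limma's adjusted p up to 0.103). None of the 12 choroid plexus markers and none of 6 blood genes was called. What part of the myelin difference goes with these regional markers was not tested.

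**Figure D4:**
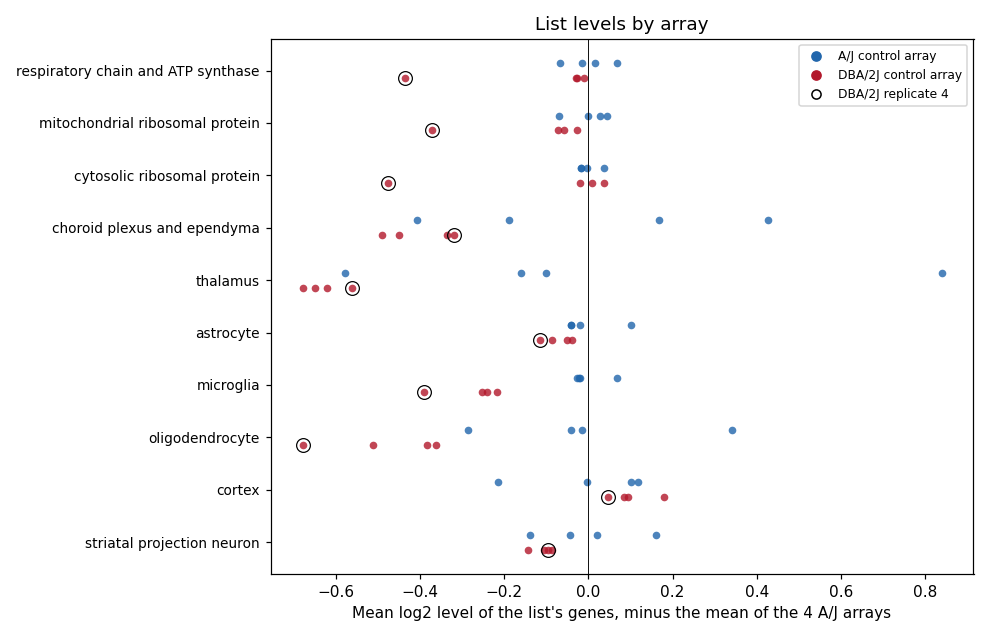
Mean log2 level of a gene list in each control array, minus the mean of the 4 A/J arrays (blue A/J, red DBA/2J, with DBA/2J replicate 4 circled). Microglial and oligodendrocyte markers are below the A/J arrays in every DBA/2J array, thalamic and choroid plexus markers spread widely among A/J arrays, and the ribosomal and respiratory lists are low in the circled array alone.

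Several housekeeping families were low in 1 array, DBA/2J replicate 4. Of 69 cytosolic ribosomal protein genes, 62 were lower in DBA/2J with a median of -0.13, and without DBA/2J replicate 4 the median was -0.0008. Respiratory chain and ATP synthase genes were lower in 67 of 77 with a median of -0.14, which was -0.03 without that array, and none was called. Mitochondrial ribosomal protein genes had a median of -0.13, or -0.05 without it. In that family 3 of 73 were called (4.11%, against 1.63% of all genes), all lower (0.912% of all genes were called lower): Mrps5, Mrpl48 and Mrpl35. Each lost the call in 5 or more of the 8 fits without an array, with limma's adjusted p up to 0.0727, 0.0975 and 0.142. Without DBA/2J replicate 4 the family had 4 calls, 2 higher and 2 lower. Mrpl35 had another called probe set at -1.66. Rpl14, of the large ribosomal subunit, was the one cytosolic ribosomal protein gene called (1.45%, against 1.63% of all genes). It read 6.08, 6.04, 6.25 and 6.25 in A/J and 7.40, 7.26, 7.39 and 6.91 in DBA/2J, a 2.12-fold higher level. Ribosomal protein genes have many processed copies in the genome, so the source of that signal is uncertain.

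Among families grouped by symbol, zinc finger genes had 12 of 301 called (3.99%, against 1.63% of all genes), 10 higher and 2 lower in DBA/2J. Besides Zfp949, Zfp472 was at 3.99 to 4.15 in A/J and 4.60 to 4.86 in DBA/2J, Zfp658 at 4.60 to 4.85 and 5.31 to 5.45, and Zfp277, one of the lower ones, at 6.34 to 6.60 and 5.42 to 5.79. Some zinc finger genes form near-identical clusters, so signals of single members of such clusters are uncertain. Which of the called genes lie in such clusters was not checked. Solute carriers had 6 of 342 called (1.75%), near the share of all genes. Slc47a1, an exporter of organic cations, was the one called higher, at 4.03 to 4.81 and 5.24 to 5.55. Slc5a5, Slc22a4, a carnitine-type transporter (-0.84), and Slc7a11, the cystine and glutamate exchanger (-0.59), were among the 5 lower. The Slc7a11 call was lost without A/J replicate 2 or DBA/2J replicate 2, with limma's adjusted p up to 0.0575.

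The protocadherins, adhesion proteins of neurons, had 2 of 36 called (5.56%, against 1.63% of all genes). Pcdhb3 was at 6.21 to 6.32 in A/J and 6.98 to 7.43 in DBA/2J, and Pcdh19 at 7.65 to 7.81 and 7.12 to 7.46 (lost in 6 of 8 fits without an array, limma's adjusted p up to 0.108). Of 67 cytochrome P450 genes 2 were called (2.99%). Cyp11a1, which starts steroid synthesis, was called higher (0.82), as was Cyp4f15 (0.65). Each kept its call in 2 of the 8 fits without an array, with limma's adjusted p up to 0.0883 and 0.098. Fbxo45, a subunit of a ubiquitin ligase of synapses, was at 8.12 to 8.46 and 7.34 to 7.54, the one called of 67 F-box genes (1.49%). Of 67 heat shock and DnaJ genes 2 were called (2.99%). Dnajc10, a chaperone of the endoplasmic reticulum, was higher (0.63) and Hspa2 lower (-0.46, lost in 5 of 8 fits without an array, limma's adjusted p up to 0.0917). No gene was called among 47 proteasome subunits, 47 ubiquitin-specific peptidases, 43 lysosomal genes, 21 genes of sterol synthesis, 21 RGS genes or 20 glutathione S-transferases.

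**Figure D5:**
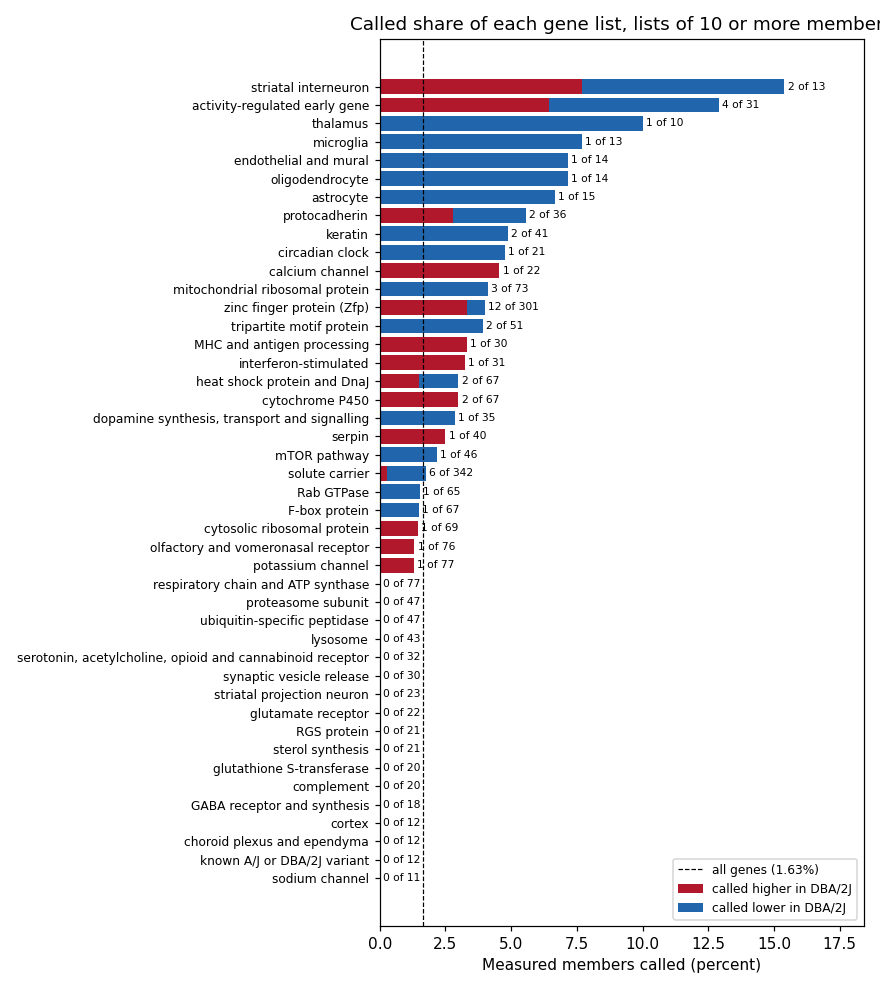
Percent of the measured members called in each gene list with at least 10 members, split into higher (red) and lower (blue) in DBA/2J, with the count beside each bar and the 1.63% of all genes as a dashed line. Most bars stand for 1 to 4 genes; zinc finger genes, 12 of 301, hold the most calls.

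Genes at which A/J or DBA/2J is known to carry a variant had no call on their brightest probe sets (0 of 12, against 1.63% of all genes), too few genes to read anything from the count. Gpnmb, which carries a stop codon in DBA/2J, was at 4.72 to 4.92 in A/J and 4.54 to 5.09 in DBA/2J. Klrd1 was at 2.96 to 3.23 and 2.85 to 3.51, and both genes are at low levels here. Myo5a, the motor altered in the dilute coat of DBA/2J, read 9.64, 9.64, 9.68 and 9.58 in A/J and 9.34, 9.32, 9.29 and 8.95 in DBA/2J, without overlap (-0.41, limma's adjusted p = 0.0775). Its 3 probe sets differed by -0.41, -0.35 and -0.40, and the last was called. Dysf, disrupted in A/J, was at 5.39 to 5.60 and 5.19 to 5.51. Glo1, glyoxalase, was lower at -0.30, -0.57 and -0.59, and the last 2 probe sets were called.

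Some called genes are neighbours in the RefSeq gene order (GRCm38.p6). Of 545 measured neighbours of the 274 called genes that could be placed, 34 were called (6.24%, against 1.63% of all genes), which was not tested. They form 16 runs, 9 of them in one direction. Krt12 and Krt20 were both lower, as were Bhlhe41 and Sspn, and Zfp772 and Vmn2r29 were both higher. The longest run, of Gm38440, Cacna1e and Ier5, held differences of -0.61, 0.63 and -1.50. Bub1, at 2.79, stood next to Mtln, at -0.85.

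The same strain contrast in risperidone-treated mice rests on 8 other arrays. There 109 genes (0.638%) were called. Of the 279 genes called in control mice, 261 (93.5%) had the same sign, against 54.5% of all genes, 81 were called again in the same direction and 0 in the opposite one. The median ratio of the differences was 0.546. Over the 30 genes with the largest differences, A/J risperidone replicates 1, 2 and 4 lay a median of 26.4%, 35.1% and 40.6% of the way from the A/J to the DBA/2J control mean, and A/J replicate 3 lay at 0.573%. The 4 DBA/2J risperidone arrays lay at 88.4% to 100.1%. So 3 A/J risperidone arrays stood between the strains, and whether these 3 match their labels was not tested. The ratio of 0.546 and the 81 repeated calls rest on them. The 279 genes were also picked on their control differences, which by itself lowers such a ratio. A smaller strain difference after risperidone cannot be told apart from that choice or from a mismatch of those arrays. Erdr1 differed by -2.71 in these mice and Pdxdc1 by -2.07, while Klf2, at -0.78 in controls, differed by -0.13 and Egr2 by -0.26 against 0.64. No probe set was called for a strain-by-treatment interaction by limma (0% of 45037), and 4140 had an unadjusted p under 0.05.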

How the data were processed

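Total RNA of 16 mice was measured on Affymetrix mouse arrays; the 4 A/J and 4 DBA/2J control arrays, grouped by the strain and agent labels, were compared. The deposited values are log2 levels normalized with RMA by the authors, per the submitters' processing notes; the RMA version and other steps are not given in the sources used here. No further normalization or filter was applied. Of 45141 probe sets, 104 controls were left out. Of the 45037 tested, 28898 name 1 gene, 551 several and 15588 none; 28689 matched RefSeq by Entrez ID.

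Differences were fitted with limma 3.58.1 (lmFit and eBayes, two-sided) in R 4.3.3, on the 8 control arrays only, with Benjamini-Hochberg adjustment over all 45037 probe sets. Figures used matplotlib 3.10.9. Each gene takes the value of its brightest probe set (highest mean over the 8 arrays). The precision is limited by 4 arrays a group. On simulated data with a spread taken from the 4 A/J control arrays, 47 of 67 probe sets changed by 0.5 (log2) were called. So were 67 of 67 changed by 1 and 66 of 66 changed by 2. The DBA/2J spread (median SD 0.163, against 0.128 in A/J) did not enter, so these shares may be too high for the real arrays.

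Named genes are the 15 highest and 15 lowest called genes without overlap, up to 4 members with the smallest p of each list with a called member, genes with opposite or fully agreeing probe sets, and a fixed set. The members and the gene lists (46 with measured genes) were chosen with earlier results of these data known, and no list was tested as a set.

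The alternatives tried were to quantile-normalize again, to centre each array on its median, to filter on level, to moderate variances with a trend and robustly, to weight the arrays, to block on replicate number, to use all 16 arrays, to ask for 1.5-fold, to average probe sets within genes, and to leave out each array.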

Additional observations from a re-analysis of the deposited data

Results flagged for a closer look

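In 16 cases among the 155 named genes, 1 array of a strain lay far from the other 3, judged by its gap to the nearest relative to the range of the 4. Chance marks about 1 in 20 groups, and 155 genes in 2 strains were examined, so 16 cases are near the number that rate gives. In DBA/2J replicate 4 the low values were Pnma2 at 7.90 (others 8.18 to 8.20), Myo5a at 8.95 (9.29 to 9.34), Drd1 at 5.85 (6.10 to 6.13), Tac1 at 5.91 (6.62 to 6.74), Klf2 at 6.35 (6.60 to 6.63), Zfp277 at 5.42 (5.75 to 5.79) and Krt222 at 6.13 (6.74 to 6.82), and Cacng5 was high there at 6.29 (5.79 to 5.84). That is the array that stood apart over all probe sets.

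In the other DBA/2J arrays, Baiap2l1 was high in replicate 2 at 6.27 (others 6.15 to 6.17), Ramp3 high in replicate 1 at 5.61 (5.46 to 5.48) and Rab2b low in replicate 1 at 6.42 (6.68 to 6.73). In A/J, Pisd was low in replicate 2 at 6.59 (6.95 to 7.00) and Slc47a1 high in that array at 4.81 (4.03 to 4.15). Glo1 was high in replicate 3 at 10.79 (10.47 to 10.50), as was Cnp at 9.56 (8.97 to 9.04), in the array with the highest thalamic markers. Clock was high in replicate 1 at 7.35 (7.10 to 7.13).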

How the results depend on the processing

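The 279 called genes and 864 called probe sets became 592 and 1745 with all 16 arrays, 590 and 1772 with array weights, and 168 and 551 with a 1.5-fold minimum, which also moved the same-sign share of other probe sets from 77.5% to 83.2%. Leaving out 1 array gave 153 to 395 genes, 488 to 1182 probe sets and a same-sign share of 74.2% to 83.5%; 267 of the 279 genes were shared with the 395 called without DBA/2J replicate 4. The remaining settings stayed within 1.5 times of the main counts, at 235 to 346 genes. The cause of these shifts was not tested, other than that the 1.5-fold minimum removes calls by construction.

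With probe sets averaged within genes the sign turned for Pdxdc1 (0.0408), Gfap (0.15), Uap1 (-0.44), Pnma2 (-0.0513), Pdk1 (0.27), Arntl (-0.0575) and Cacna1c (0.21). Values near 0 and not called turned for Naip5 with array weights (-0.0236), for Penk (-0.0075) and Pdyn (-0.0050) with median centring, and, with 1 array left out, for Gpnmb (-0.13 to 0.0558), Penk (-0.25 to 0.28), Pdyn (-0.0492 to 0.10) and Naip5 (-0.0475 to 0.16). Of 2588 values of named genes under these settings, 2280 kept direction and side of the threshold, 173 lost and 115 gained a call, and 20 reversed. Of the 72 named called genes, 46 stayed called without each array in turn.

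Whether replicate numbers pair the arrays was not settled by their correlations. Same-numbered arrays of the strains correlated at -0.05 to 0.17 in their deviations, and other pairs at -0.14 to 0.08. Of the 4 same-numbered pairs 1 passed 0.1, and for 5 of 8 arrays the best partner had the same number. With the replicate number as a block, 235 genes and 716 probe sets were called, with a same-sign share of 76.9%.

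With probe sets split into 4 equal groups by level, 0.781% of the lowest group were called, against 1.83%, 2.91% and 2.15% of the others.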

Other observations

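Several neuropeptide and interneuron genes were called higher in DBA/2J; they were picked after their values were seen, so they are a description. The list of 13 striatal interneuron markers shows no such direction, with 6 higher, 7 lower and a median of -0.03 (Vip called higher, Calb2 called lower). Vip, vasoactive intestinal peptide, read 7.18, 6.98, 6.87 and 7.03 in A/J and 7.93, 8.00, 7.79 and 7.26 in DBA/2J. Crh, corticotropin-releasing hormone, was at 6.64 to 7.51 and 7.60 to 8.02, and its binding protein gene Crhbp at 6.64 to 7.00 and 7.34 to 7.45. Grp, gastrin-releasing peptide, was at 6.61 to 7.12 and 7.30 to 7.74, and Vgf, a granule protein, at 9.05 to 9.31 and 9.61 to 9.74. Reln, reelin, was at 7.65 to 7.84 and 8.07 to 8.36. Vipr2, a receptor of Vip, was lower in DBA/2J, at 5.53 to 6.34 and 4.94 to 5.16. Vip lost its call in 7 of the 8 fits without an array (limma's adjusted p up to 0.103), and Crh lost it without DBA/2J replicate 4 (0.0576).

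Other genes chosen in the same way were Nnt, the mitochondrial transhydrogenase, lower in DBA/2J on both of its probe sets (9.10 to 9.51 and 8.21 to 8.62), and Mark1, a microtubule affinity kinase, higher by 1.18, with 2 of 5 probe sets called. Syt13, a synaptotagmin, was higher by 1.18 on 1 of 2 probe sets.

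Of the called probe sets, 361 name no gene or several, and 341 of these name none. The largest difference in each direction there was larger than that of any gene's brightest probe set. Probe set 1428137_PM_at read 9.87, 9.75, 9.60 and 9.55 in A/J and 4.03, 4.26, 4.32 and 6.57 in DBA/2J. Probe set 1454714_PM_x_at was at 9.15 to 9.38 and 4.32 to 4.82. In the other direction, 1433438_PM_x_at was at 2.68 to 3.32 and 7.37 to 7.61, and 1456182_PM_x_at at 3.85 to 4.70 and 7.55 to 8.16. Among probe sets that name none, 43 were at least 2-fold lower and 37 at least 2-fold higher in DBA/2J.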
